A study of Mus musculus with 4 samples.

Results

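Annexin A5 (Anxa5) and S100a10 are 2 of the 397 genes in a targeted immune panel that was read out in single cells from mouse brain. They were chosen by name, after earlier results of these data had shown their levels across cell classes, so those levels are given as a description with no test. Both genes lie on chromosome 3 of the mouse genome (RefSeq, GRCm38.p6), Anxa5 at chr3:36448923-36475887 and S100a10 at chr3:93555117-93564645. The cells came from the right hemisphere, without cerebellum, of 2 Abi3-/- and 2 Abi3+/+ male mice aged 9 months. Every mouse carried the 5XFAD transgenes, which are driven in neurons and carry familial Alzheimer's disease mutations, and was heterozygous for a Trem2 allele of the SJL background. Abi3-/- mice lacked the Abi3 locus from the germline and in every cell, so the loss was not limited to microglia. Abi3 itself was not among the measured genes, so the genotype of each mouse is taken from its label alone.

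Anxa5 binds phosphatidylserine on membranes in the presence of calcium, and the protein is widely used to stain dying cells, which expose this lipid. S100a10, also called p11, is an S100 protein that does not need calcium and works mostly in a complex with another annexin, annexin A2, which was not on the panel. That complex binds plasminogen at the cell surface. Microglia near amyloid plaques switch on a program called disease-associated microglia (DAM), in which Apoe and Cst7 are induced and genes of resting microglia such as Cx3cr1 are lowered.

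The filter of 40 or more genes with a read, and of no more reads than the study's upper limit, kept 13820 of 21172 cells. Abi3-/- mouse 1 gave 2321 of these and mouse 2 gave 4499, against 3796 from Abi3+/+ mouse 1 and 3204 from mouse 2. Median reads per kept cell ran from 19647.5 to 24283. Each mouse gave 1 library, so mouse and library cannot be told apart. Cell labels found in more than 1 library covered 239 kept cells. Cells with reads of 3 or more T cell, macrophage or monocyte, neutrophil or B cell markers were set apart as T cell-like, macrophage-like, neutrophil-like and B cell-like, and are called by these types below. The macrophage gate used Ccr2, F13a1, Cd163, Clec10a, Flt3, Kcne3 and Itga4. The marker found in most of its cells was Ccr2 in the Abi3-/- mice, at 86.7% and 88.1%, but Flt3 in Abi3+/+ mouse 1, at 75%, and Clec10a in Abi3+/+ mouse 2, at 83.3%. Dendritic cells also express Flt3 and Clec10a, so this class may hold them beside macrophages and monocytes. The remaining 13067 cells with a Trem2 read are called microglia, and they were split into 4 states by whether they had a read of Apoe and of Cst7. Microglia markers fitted this label, with C1qa in at least 99.7% of these cells in every mouse, whereas the T cell marker Cd3e was in at most 0.0458% of them.

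Anxa5 was the more widespread gene of the pair. It had a read in 5051 of the kept cells, or 36.5%, against 1700 cells or 12.3% for S100a10. Microglia held 88.0% of all Anxa5 reads. S100a10 reads were spread otherwise, with 43.6% in T cells, 13.5% in macrophages and 30.7% in microglia. The T cells were only 305 of the cells kept.

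Among the microglial states, Anxa5 was in the fewest cells where both Apoe and Cst7 were missing. In these Apoe- Cst7- microglia, an Anxa5 read was found in 32.02% of cells in Abi3-/- mouse 1 and 27.4% in mouse 2, against 17.1% and 18.6% in Abi3+/+. In Apoe+ Cst7+ microglia, the state with both DAM genes, the Abi3-/- shares were 51.03% and 65.1% and the Abi3+/+ shares 65.99% and 67.1%. No mouse overlapped between these 2 states, and within each mouse the share was higher in Apoe+ Cst7+ cells, by 38.5 ± 14.01 percentage points (SD, n = 4). A share higher in all 4 mice was found for 32.7% of the 214 genes compared, so the direction alone was common. Ordered by the size of the difference, Anxa5 was number 4 of the 214 genes, after Apoe and Cst7, which define the states, and the integrin gene Itgax at 39.99 points. The smallest difference was in Abi3-/- mouse 1, at 19.01 points, and the largest in Abi3+/+ mouse 1, at 48.9 points.

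The states with only one of the DAM genes lay between. Apoe+ Cst7- cells had an Anxa5 read in 41.3% and 36.4% of Abi3-/- and 25.9% and 29.1% of Abi3+/+ cells. Apoe- Cst7+ cells had one in 37.9% and 39.7% of Abi3-/- and 27.5% and 33.3% of Abi3+/+ cells. These intermediate states did not differ beyond their spread, since Apoe- Cst7+ minus Apoe+ Cst7- was 1.44 ± 3.42 points (SD, n = 4) and positive in 3 of 4 mice. Each was above Apoe- Cst7- in all 4 mice, by 9.38 ± 0.73 points for Apoe+ Cst7- and 10.8 ± 3.75 points for Apoe- Cst7+. The difference of Apoe+ Cst7+ from either was larger, at 29.1 ± 13.8 and 27.7 ± 11.1 points. For the contrasts with these intermediate states, the share of all genes with one direction in all 4 mice was not counted.

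S100a10 did not follow this order. In Apoe- Cst7- microglia 15.7% and 12.7% of Abi3-/- and 7.07% and 6.31% of Abi3+/+ cells had an S100a10 read. In Apoe+ Cst7+ microglia the Abi3-/- shares were 13.5% and 8.49% and the Abi3+/+ shares 3.73% and 1.89%. The Apoe+ Cst7+ share was lower in each mouse, by 3.53 ± 1.01 points (SD, n = 4), although the mice of the 2 genotypes lay further apart than the states did. A share lower in all 4 mice was found for 33.6% of the genes compared, and S100a10 was number 149 of 214 from the top. Apoe+ Cst7- and Apoe- Cst7+ cells differed from Apoe- Cst7- cells by 0.20 ± 1.10 and -0.92 ± 1.87 points, each positive in 2 of 4 mice, which is within the spread between mice.

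**Figure D1:**
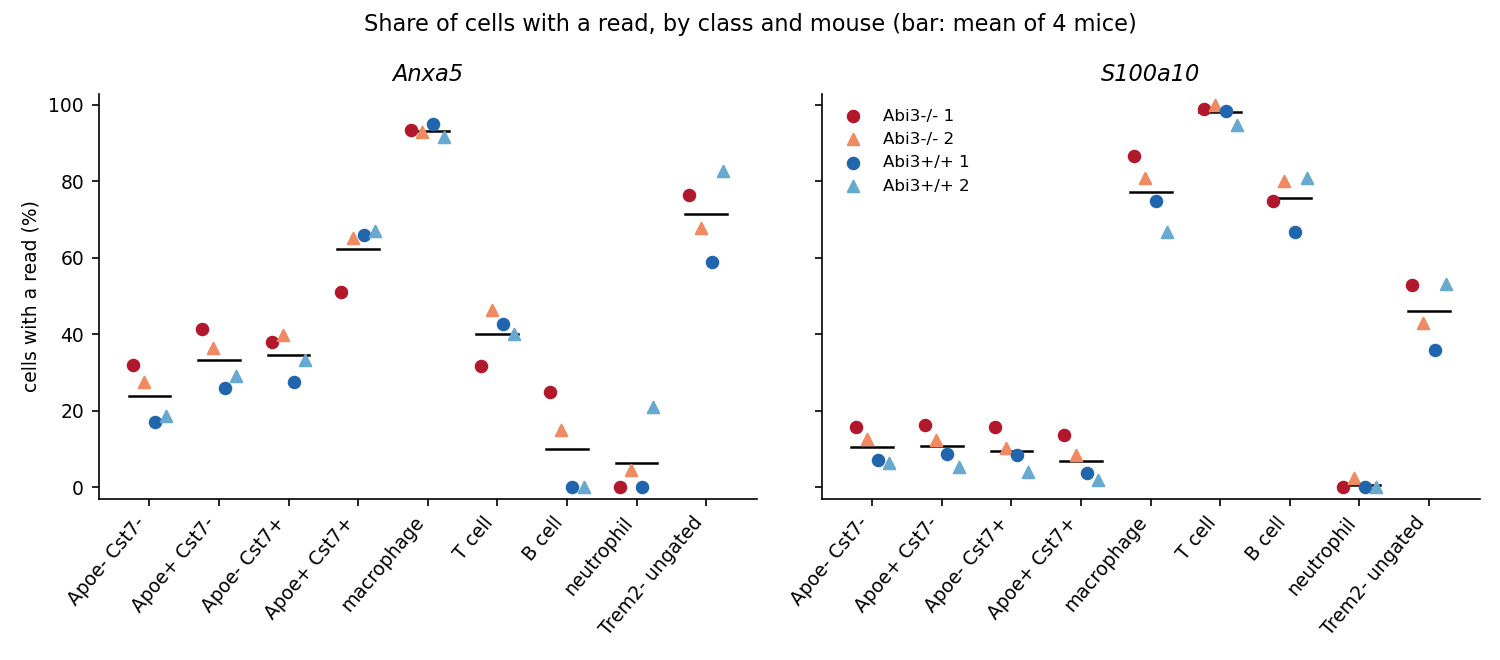
Share of cells with a read (percent, vertical axis) of Anxa5 (left) and S100a10 (right) in 9 cell classes, with 1 point per mouse and a bar for the mean of 4 mice. Anxa5 stands at 62.3% in Apoe+ Cst7+ microglia and 93.2% in macrophages, whereas S100a10 stands at 98.0% in T cells and 6.91% in Apoe+ Cst7+ microglia.

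Depth moved with state. Apoe+ Cst7+ cells had median reads of 27673 to 31908 per mouse, against 16978 to 20989 in Apoe- Cst7- cells. With each cell thinned to 10000 reads, the differences between these states were 38.5 ± 14.01 points for Anxa5 and -3.63 ± 1.06 points for S100a10. The fewest reads of Anxa5 in any positive microglia were 9, and of S100a10 10, so a positive cell nearly always stays positive when its reads are thinned. Thinning reads therefore does not stand in for thinning molecules, and the part of depth in the state difference was tested only to that extent.

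Anxa5 also went with the amount of the DAM reads. Microglia without a Cst7 read had Anxa5 in 27.1 ± 8.64% of cells (SD, n = 4), those with 1 to 99 Cst7 reads in 35.5 ± 6.85%, and those with 100 to under 300 in 51.4 ± 5.12%. The share reached 66.8 ± 6.22% at 300 to under 1000 reads and 78.2 ± 5.08% at 1000 or more. Every mouse went up at every step, from 37.9% to 70.6% in Abi3-/- mouse 1 and from 30.3% to 80.4% in Abi3-/- mouse 2. In the Abi3+/+ mice the first and last shares were 19.3% and 80.7% in mouse 1 and 21.05% and 81.1% in mouse 2. How many of all genes went up at every step in every mouse was not counted. Along Apoe reads the mean share went from 25.6 ± 7.34% without a read to 77.6 ± 7.71% at 1000 or more, where Abi3+/+ mouse 2 had only 18 cells and 77.8%, against 78.2% at its previous step.

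S100a10 went down along Cst7 reads. Its share was 10.5 ± 4.58% (SD, n = 4) in microglia without a Cst7 read, 5.00 ± 4.09% at 300 to under 1000 reads and 2.95 ± 1.78% at 1000 or more. In the last of these, the Abi3-/- shares were 3.53% and 5.15% and the Abi3+/+ shares 2.03% and 1.08%. Each mouse ended below its start, but not every step was down, as Abi3-/- mouse 1 had 17.5% at 100 to under 300 reads against 15.98% at 0. Along Apoe reads the mean S100a10 share went from 10.3 ± 4.48% without a read to 6.46 ± 5.73% at 300 to under 1000, where each mouse was below its start. At 1000 or more it was 8.25 ± 4.99%, over only 18 to 96 cells per mouse, and there Abi3-/- mouse 2 was above its start, at 13.3% against 12.1%. Median reads per cell also went up along these steps, to between 41196 and 45812 at 1000 or more Cst7 reads, while the S100a10 share went down. How many of all genes ended below their start in every mouse was not counted.

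**Figure D2:**
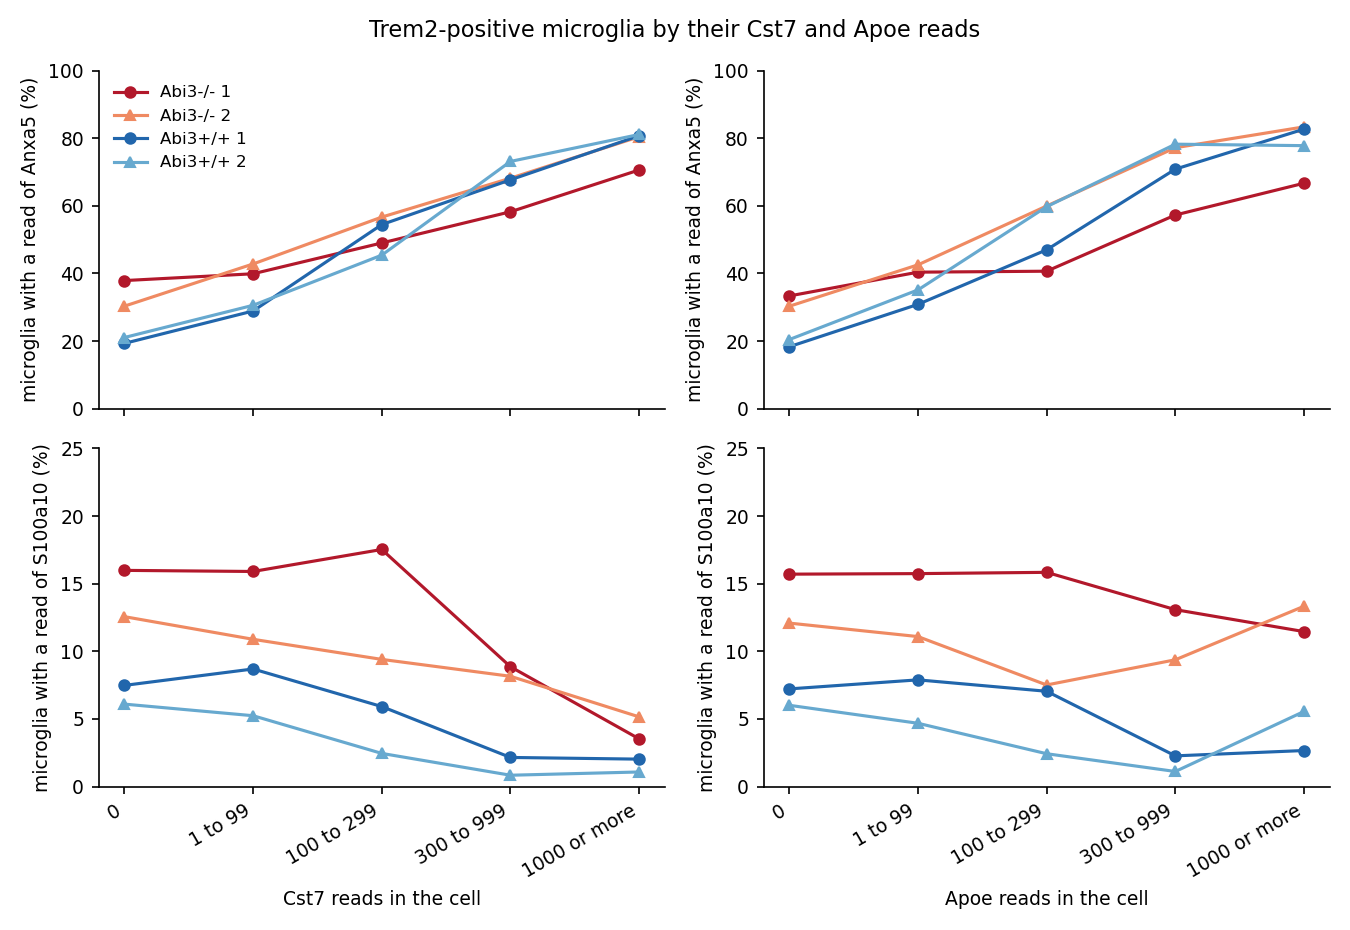
Share of microglia with a read of Anxa5 (upper panels) or S100a10 (lower panels, shorter axis) in steps of Cst7 reads (left) and Apoe reads (right), 1 line per mouse. Anxa5 climbs from 27.1% to 78.2% on average along Cst7, and S100a10 goes from 10.5% to 2.95%.

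Within Apoe+ Cst7+ microglia, other DAM genes that did not define the state split Anxa5 further. Cells with a read of Itgax, which encodes CD11c, had Anxa5 in 57.6% and 68.2% of Abi3-/- and 74.2% and 73.8% of Abi3+/+ cells. Cells without it had 45.8% and 61.2%, and 57.7% and 53.8%, which were lower within each mouse by 13.8 ± 5.66 points (SD, n = 4). Spp1, the osteopontin gene, gave a difference of 11.3 ± 3.20 points in the same direction in all 4 mice. The chemokine receptor Cx3cr1, which marks resting microglia, gave -5.42 ± 5.95 points, with 3 of 4 mice lower in Cx3cr1-positive cells. The S100a10 difference was -1.89 ± 0.91 points with Itgax, lower in all 4 mice, and 3.27 ± 2.89 points with Cx3cr1, higher in all 4 mice. With Spp1 it was -1.94 ± 2.67 points, lower in 2 of 4 mice. How many of all genes had one direction in all 4 mice was not counted for these splits, so such a direction may be common. For each of these 3 genes, cells with a read were also deeper in every mouse, with median reads of 32909 to 36146 with Itgax against 23082 to 27573 without it. In cells thinned to 10000 reads, Anxa5 was in 68.7% of cells with Itgax and 54.9% without on average.

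Smaller groups of microglia were also set apart. The 302 microglia with reads of 3 or more MHC class II genes had Anxa5 in 54.01 ± 7.59% of cells, 20.6 ± 8.77 points above microglia with none and higher in 4 of 4 mice. These cells had median reads of 27698 to 33970 per mouse, against 18527 to 23746.5, and with thinned cells the mean Anxa5 shares were 54.8% and 33.7%. S100a10 in these cells was 2.50 ± 3.43 points higher, in 3 of 4 mice. The number of all genes higher in 4 of 4 mice was not counted for this split. The 82 microglia with 3 or more cycling genes, 8 to 39 per mouse, had S100a10 in 19.9 ± 9.62% of cells, 10.4 ± 7.40 points above those with none. In Abi3+/+ mouse 2 this was 1 cell, or 5.56% against 5.29%. For Anxa5 the difference between these groups of microglia was 13.1 ± 16.2 points, positive in 3 of 4 mice. In Apoe- Cst7- cells, a read of the immediate early gene Fosb moved Anxa5 by -0.68 ± 3.68 points and S100a10 by -0.05 ± 3.08 points, both within the spread between mice.

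Outside the microglia, macrophages had Anxa5 most often. For Abi3-/- these were 14 of 15 and 39 of 42 macrophages, and for Abi3+/+ 19 of 20 and 22 of 24, or 93.2 ± 1.38% (SD, n = 4). Every mouse was above its own Apoe+ Cst7+ microglia, by 30.9 ± 7.83 points. The share of all genes with this direction in every mouse was not counted. The amount per positive cell was also higher, with a median of 171.5 Anxa5 reads in macrophages, 77 in Apoe+ Cst7+ microglia and 57 in Apoe- Cst7- microglia. Macrophages were also the deepest class, with median reads of 34973.5 to 47574 per mouse. S100a10 was in 86.7% and 80.95% of Abi3-/- and 75% and 66.7% of Abi3+/+ macrophages. Among macrophages without a Trem2 read it was in 91.4 ± 10.2%, and among those with one in 59.8 ± 7.74%.

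T cells were the class in which S100a10 was nearly universal. For Abi3-/- it was in 94 of 95 and 67 of 67 T cells, and for Abi3+/+ in 67 of 68 and 71 of 75. Positive T cells held a median of 301 S100a10 reads, close to the 300.5 of positive macrophages and above the 58 of positive microglia, although T cells were shallower, with median reads of 15121 to 17450. The share in T cells was above that in macrophages in all 4 mice, by 20.7 ± 6.71 points. How many of all genes were higher in all 4 mice was not counted for this contrast. Anxa5 was in 31.6% and 46.3% of Abi3-/- and 42.6% and 40% of Abi3+/+ T cells, and these cells held a median of 57 Anxa5 reads. That share was not apart from the intermediate microglial states, as T cells minus Apoe- Cst7+ cells was 5.51 ± 8.82 points and T cells minus Apoe+ Cst7- cells 6.95 ± 11.5 points. T cells with a read of Cd8a, the CD8 co-receptor, differed from the others by 5.58 ± 9.89 points for Anxa5 and -1.46 ± 1.07 points for S100a10.

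Neutrophils had few reads of either gene. Of 117 neutrophils, 8 had an Anxa5 read, 4 of 87 in Abi3-/- mouse 2 and 4 of 19 in Abi3+/+ mouse 2. The other 2 mice had 5 and 6 neutrophils with no read, which allows shares of up to 60% and 50%. S100a10 was in 2 neutrophils, both of Abi3-/- mouse 2, where the share was 2.30% (exact 95% interval 0.28 to 8.06%). By contrast the S100 genes of neutrophil granules, S100a8 and S100a9, which were markers of the gate, had means of 99.4% and 93.6% in these cells. The B cells numbered 53, of which 42 had S100a10 and 4 had Anxa5. The 176 Trem2-negative cells in none of the gates had Anxa5 in 71.5 ± 10.4% and S100a10 in 46.2 ± 8.38% of cells. They were left unnamed. With no cell filter the Anxa5 share in neutrophils was only 3.73 points lower (-3.73 ± 17.6) than in Apoe- Cst7- microglia, against -17.4 ± 14.6 points in kept cells.

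Reads that come from free RNA would also appear in neutrophils. The median neutrophil had 26931 reads, as deep as microglia, so the neutrophil shares serve as a background. The Anxa5 shares of the microglial states were above the neutrophil share of 4.60% in Abi3-/- mouse 2, and so were its S100a10 shares, at 8.49 to 12.7% against 2.30%. In Abi3+/+ mouse 2, however, the 4 of 19 neutrophils with an Anxa5 read make 21.1% (exact 95% interval 6.05 to 45.6%), which is above the 18.6% of its Apoe- Cst7- microglia, so the Anxa5 share of that state cannot be told from background there. Its shares in the intermediate states, 29.1% and 33.3%, lie inside that interval, and its Apoe+ Cst7+ share of 67.1% lies above it. In the Abi3+/+ mice, the few neutrophils had no S100a10 read and set no useful limit, since 0 of 19 allows up to 15.8%. Set against the interval of Abi3-/- mouse 2, the only one of use, the S100a10 shares of Abi3+/+ microglia were inside it in every state of mouse 2, from 1.89 to 6.31%, and in the Apoe- Cst7- and Apoe+ Cst7+ cells of mouse 1, at 7.07% and 3.73%. These shares cannot be told from the background of Abi3-/- mouse 2. Whether that background holds for the libraries of the Abi3+/+ mice was not tested. Markers of the other types were also looked for in microglia. Each T cell marker had a read in at most 0.331% of microglia in any mouse, and each macrophage marker in at most 2.32%. The neutrophil marker S100a8 reached 6.11% in Abi3-/- mouse 2 and 2.07% in Abi3+/+ mouse 2. It was at 0.32% in Abi3-/- mouse 1 and 0.87% in Abi3+/+ mouse 1, so it differed between libraries. In the 12185 microglia with no marker read of any of the 4 gates, S100a10 was in 14.96% and 10.7% of Abi3-/- and 6.85% and 5.10% of Abi3+/+ cells.

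Levels over the 9 classes gave the same contrast between the genes. On the log-normalized scale (scale factor 10000, a mean over mice for each class), the Anxa5 level was 3.51 in macrophages, 3.05 in the Trem2-negative ungated cells, 2.05 in Apoe+ Cst7+ microglia, 1.38 in T cells and 0.77 in Apoe- Cst7- microglia. The S100a10 level was 5.01 in T cells, 3.34 in macrophages, 3.04 in B cells and 0.20 in Apoe+ Cst7+ microglia. Across these 9 classes the genes most like Anxa5 were Il1rl1, the IL-33 receptor (Pearson r = 0.91), Spp1 (r = 0.89), Tnfsf13, which encodes APRIL (r = 0.89), the metalloprotease gene Mmp12 (r = 0.89) and Ybx3 (r = 0.87), of 337 genes compared. Among those most like S100a10 were Cblb, a ubiquitin ligase (r = 0.96), Tnfrsf18, which encodes GITR (r = 0.95), galectin-1, Lgals1 (r = 0.92), and the integrin gene Itga4 (r = 0.91), which was itself a macrophage marker of the gates. The members' own correlation was 0.33. These correlations are over 9 points that share libraries and differ in depth. A high value need not mean a like rise over the microglial states. From Apoe- Cst7- to Apoe+ Cst7+ microglia, the level of Il1rl1 went from 0.22 to 0.24 and of Ybx3 from 0.24 to 0.25. Spp1 went from 0.03 to 0.29, Tnfsf13 from 0.29 to 0.41 and Mmp12 from 0.01 to 0.03.

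Between single cells, reads of both genes together were looked for within each state. In Apoe+ Cst7+ microglia, 48 cells of Abi3-/- mouse 1 had both, as did 83 of mouse 2, against 14 and 7 in Abi3+/+, which is 6.62%, 5.87%, 2.17% and 1.205% of the cells. The product of the separate shares was 6.90%, 5.53%, 2.46% and 1.27%, so joint detection was near what independent detection gives. The log2 odds ratio of co-detection was -0.14 and 0.28 in Abi3-/- and -0.51 and -0.30 in Abi3+/+, with a mean of -0.17 ± 0.33 (SD, n = 4). In Apoe- Cst7- cells it was 0.08 ± 0.14 and in Apoe- Cst7+ cells -0.03 ± 0.54, with both signs among the mice. Only Apoe+ Cst7- cells had the same sign in all 4 mice, with 0.23 and 0.75 in Abi3-/- and 0.46 and 0.81 in Abi3+/+, and a mean of 0.56 ± 0.27. There S100a10-positive cells had Anxa5 in 41.04 ± 6.80% and S100a10-negative cells in 32.3 ± 6.81%. These values rest on 60 and 44 cells with both genes in Abi3-/- and 19 and 11 in Abi3+/+. Over all microglia the mean was -0.11 ± 0.18, with both signs among the mice. Other gene pairs were not compared.

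**Figure D3:**
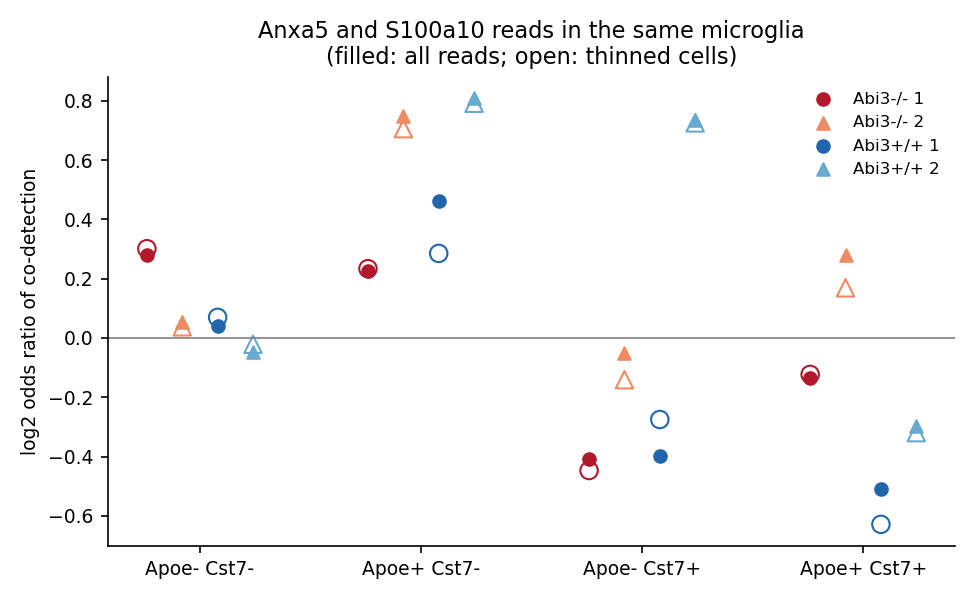
Log2 odds ratio of having reads of both Anxa5 and S100a10 (vertical axis) in the 4 microglial states, 1 point per mouse, filled for all reads and open for cells thinned to 10000 reads. The points lie on both sides of 0 except in Apoe+ Cst7- microglia, where the 4 mice lie between 0.23 and 0.81.

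Macrophages and T cells held both genes together in 75.2% and 39.8% of cells on average over the mice, where the product of the separate shares was 72.1% and 39.4%. Of 101 macrophages 76 had both, 18 Anxa5 alone, 2 S100a10 alone and 5 neither. Of 305 T cells 119 had both, 180 S100a10 alone and 1 Anxa5 alone. No neutrophil had both.

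The panel genes that rank with each member between cells differed too. Within Apoe+ Cst7+ microglia, Anxa5 was most like Lilrb4a, an inhibitory receptor of the DAM program (mean Pearson r over the 4 mice 0.25, from 0.21 to 0.27), and least like Selplg, a resting microglia gene (r = -0.24, from -0.27 to -0.22). Cst7, with r = 0.21, and the galectin-3 gene Lgals3, with r = 0.20, were also among its 5 nearest. S100a10 had no gene above r = 0.12 and was least like the lysosomal protease gene Ctsd (r = -0.14, from -0.20 to -0.10). These are weak relations in sparse reads over 3272 cells and are given as values only.

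Genes with related roles were described as lists, by the same contrast of states. Of the 8 measured genes for phosphatidylserine and apoptotic cell recognition, Anxa5 included, 3 had a higher share in Apoe+ Cst7+ than in Apoe- Cst7- microglia in all 4 mice and 3 a lower share, beside 32.7% and 33.6% of all genes. The higher ones besides Anxa5 were Thbs1, a bridging protein, at 4.00 ± 0.95 points, and the scavenger receptor Cd36 at 1.17 ± 0.98 points, and among the lower ones was the inhibitory phospholipid receptor Cd300a at -13.98 ± 7.01 points. The median difference of this list was -0.16 points, beside -0.53 over all genes compared. Of 6 S100 and galectin genes 2 were higher, Lgals1 by 6.98 ± 2.31 and Lgals3 by 11.996 ± 6.54 points, and 2 were lower, S100a10 and Lgals9, the latter by 10.8 points (-10.8 ± 3.38), with a median of -0.14 points. Of 8 genes of surface proteolysis and clotting, S100a10 included, 3 were higher and 2 lower, with a median of 0.05 points. DAM genes were higher for 11 of 13, which includes Apoe and Cst7 that define the states, with a median of 22.8 points. The 5 resting microglia genes had a median of -12.2 points, with 4 lower in all 4 mice. The 6 immediate early genes had a median of -24.7 points, with 5 lower and 0 higher in all 4 mice.

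The last question was whether the members differed between Abi3-/- and Abi3+/+ mice within each class. Summed reads of each mouse and class went into a quasi-likelihood fit (edgeR) of all panel genes with enough reads, with Benjamini-Hochberg adjustment over those genes. No gene passed an adjusted p of 0.05 in any class. Unadjusted p under 0.05 was reached by 11% of the 282 genes tested in Apoe- Cst7- microglia, 2.46% of 284 in Apoe+ Cst7-, 6.02% of 249 in Apoe- Cst7+ and 4.71% of 276 in Apoe+ Cst7+. It was reached by 6.48% of 324 genes in all microglia, 5.14% of 253 in macrophages and 4.91% of 285 in T cells. The share of genes called after adjustment was 0% by edgeR throughout. For a share of cells, an exact permutation test over 2 against 2 mice cannot go under p = 0.3333.

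S100a10 was the more uniform of the pair in its direction between genotypes. In each of the 4 states, both Abi3-/- mice had an S100a10 share above either Abi3+/+ mouse. Besides the end states given above, Apoe+ Cst7- cells had 16.1% and 12.4% against 8.70% and 5.38%, and Apoe- Cst7+ cells 15.7% and 10.2% against 8.33% and 3.85%. Such a separation was seen for 25.1% of genes in Apoe- Cst7-, 24.1% in Apoe+ Cst7-, 23.9% in Apoe- Cst7+ and 46.8% in Apoe+ Cst7+ microglia. A separation in all 4 states was rarer and was found for 5.18% of 193 genes, which were Bcl6, Cd22, Cd74, Cmklr1, Gapdh, H2-DMa, Lipa, Pcna, S100a10 and Tnfsf8. The states come from the same 4 mice and are not independent of each other. In summed reads the log2 fold change of S100a10 (Abi3-/- over Abi3+/+) was 1.01 ± 0.25 (SE) in Apoe- Cst7-, 1.04 ± 0.31 in Apoe+ Cst7-, 1.16 ± 0.55 in Apoe- Cst7+ and 1.75 ± 0.45 in Apoe+ Cst7+. None passed the edgeR test, with adjusted p of 0.340, 0.817, 0.953 and 0.850 from unadjusted p of 0.0174, 0.0290, 0.107 and 0.0148. Without Abi3-/- mouse 1 the Apoe- Cst7+ value was 0.60, and without Abi3+/+ mouse 2 it was 0.77. With no cell filter the Apoe+ Cst7- value was 0.65, and with states from 100 reads the Apoe+ Cst7+ value was 2.69. Most of the Abi3+/+ shares behind these fold changes could not be told from the background of Abi3-/- mouse 2, as given above. The size of the folds is therefore uncertain. In Apoe- Cst7- cells DESeq2 gave S100a10 an adjusted p of 0.0208, along with 3.9% of the genes it tested.

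Over all microglia the Abi3-/- shares of S100a10 were 15.1% and 10.9% and the Abi3+/+ shares 6.89% and 5.11%, and 33.2% of genes were separated in this direction. In edgeR, summed reads differed by 1.05 ± 0.27 on the log2 scale, with an adjusted p of 0.609. With the same mix of states in every mouse the shares were 15.2% and 11.3% against 6.67% and 4.76%. Abi3-/- mouse 1 was highest in each state and Abi3+/+ mouse 2 lowest. In T cells the S100a10 share was 98.9% and 100% against 98.5% and 94.7%, separated as for 23% of genes, with a log2 fold change of 0.18 ± 0.17 (adjusted p = 0.969), or 0.30 without Abi3-/- mouse 1 and 0.03 without Abi3-/- mouse 2. Macrophage shares were also separated, as for 17.2% of genes, but their summed reads were not. The log2 fold change there was 0.23 ± 0.43 (adjusted p = 0.988, edgeR), and it turned to -0.00623 with library size only and -0.15 without Abi3+/+ mouse 2.

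For Anxa5 the genotype values had opposite signs at the ends of the states, and neither passed the edgeR test. In Apoe- Cst7- microglia its share was higher in both Abi3-/- mice, as for 25.1% of genes, and the log2 fold change in summed reads was 0.85 ± 0.20 (adjusted p = 0.340, edgeR). Its share there in Abi3+/+ mouse 2 could not be told from background, as given above. The few neutrophils of Abi3+/+ mouse 1 set no useful limit, so the size of this fold is uncertain. DESeq2 gave an adjusted p of 0.0208 for the same cells. In Apoe+ Cst7+ microglia both Abi3-/- mice were lower, which was seen for 8.8% of genes there, and the log2 fold change was -0.60 ± 0.25 (adjusted p = 0.850). That lower share was small in Abi3-/- mouse 2, at 65.1% against 65.99% and 67.1%, and rests on Abi3-/- mouse 1 with 51.03%. In CPM (the class's reads of a gene scaled to its total reads) the 2 Abi3-/- mice were 1436 and 1856 and the Abi3+/+ mice 2381 and 2495. The log2 fold change without Abi3-/- mouse 1 was -0.35. Among all microglia with a Cst7 read, cells were also counted by their amount of Cst7 reads. At 1 to 99 Cst7 reads there were 371 and 652 Abi3-/- and 322 and 229 Abi3+/+ cells. At 1000 or more, where Anxa5 was more common, there were 85 and 291 against 197 and 185. These counts also follow the number of microglia per mouse, 2185 and 4226 in Abi3-/- and 3660 and 2996 in Abi3+/+. They were not turned into shares, so no difference between genotypes is read from them. What the amount of Cst7 reads did to the Anxa5 value of Apoe+ Cst7+ cells was not tested. The intermediate states had log2 fold changes of 0.54 ± 0.17 for Apoe+ Cst7- (adjusted p = 0.817), which was 0.20 with no cell filter and 0.14 with states from 100 reads, and 0.15 ± 0.24 for Apoe- Cst7+ (adjusted p = 0.953). This last value was 0.27 without Abi3-/- mouse 1 and 0.0255 without mouse 2, and 0.00442 without Abi3+/+ mouse 1 and 0.31 without mouse 2. It turned to -0.0705 with no cell filter and to -0.47 with states from 100 reads.

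The difference between the end states was tested as an interaction of genotype with state. For Anxa5 the log2 interaction was -1.52 ± 0.28 (SE), with an unadjusted p of 0.000878 and an adjusted p of 0.110 (edgeR), so it did not pass. It had the smallest p of the 305 genes tested, of which 0 passed and 10.5% had an unadjusted p under 0.05. DESeq2 gave -1.57 and an adjusted p of 0.00832, with 7.31% of its genes called. The interaction rests in part on Apoe- Cst7- cells of Abi3+/+ mouse 2, whose Anxa5 share could not be told from background. Without Abi3-/- mouse 2 edgeR gave -1.88 (adjusted p = 0.0284), and without Abi3-/- mouse 1 it gave -1.07 (adjusted p = 0.323). In the same fits without Abi3+/+ mouse 1 or mouse 2 it gave -1.36 and -1.66, with adjusted p of 1 and 0.842. Each of these leaves a genotype with 1 mouse, which is assumed to vary as the mice of the other do. The S100a10 interaction was 0.72 ± 0.38 (adjusted p = 0.555), from 0.45 without Abi3+/+ mouse 2 to 1.02 without Abi3+/+ mouse 1, and 1.71 with states from 100 reads.

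**Figure D4:**
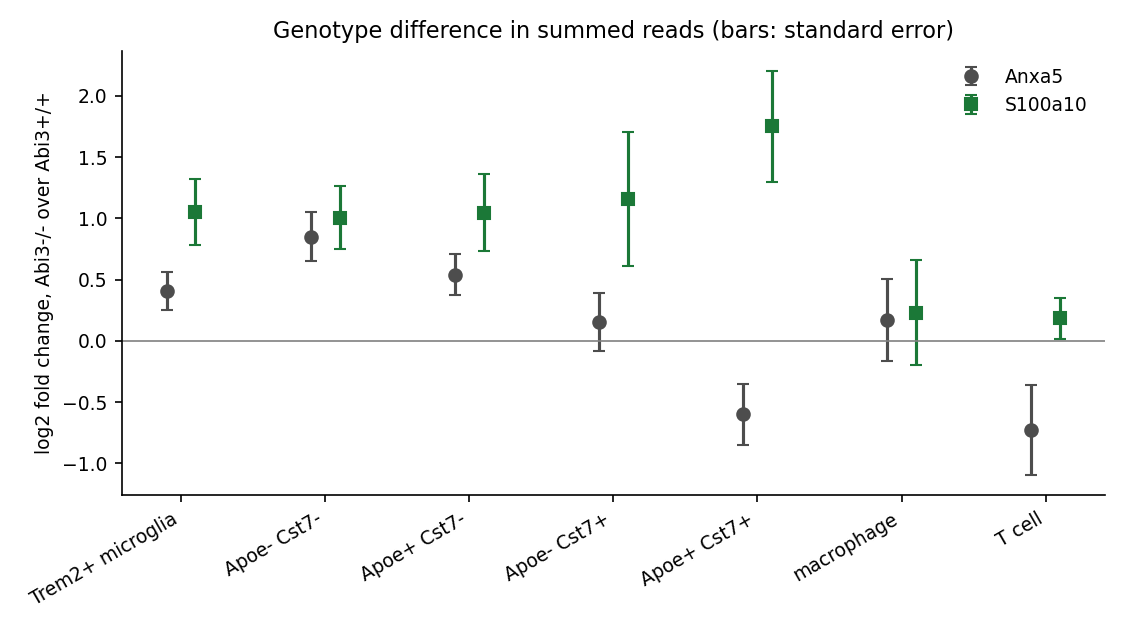
Log2 fold change of summed reads, Abi3-/- over Abi3+/+ (vertical axis), for Anxa5 (circles) and S100a10 (squares) in all microglia, the 4 states, macrophages and T cells, with bars for the standard error of edgeR's test over 2 mice per genotype. S100a10 lies between 1.01 and 1.75 in the microglial states, and Anxa5 goes from 0.85 in Apoe- Cst7- to -0.60 in Apoe+ Cst7+. Most S100a10 shares of the Abi3+/+ states could not be told from the neutrophil background of Abi3-/- mouse 2. In Abi3+/+ mouse 2 the Anxa5 share of Apoe- Cst7- cells could not be told from that of its own neutrophils.

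Over all microglia the Anxa5 share was 42.2% and 43.02% in Abi3-/- and 28.1% and 30.9% in Abi3+/+. State numbers moved with this value. Apoe+ Cst7+ cells were 33.2% and 33.4% of Abi3-/- and 17.6% and 19.4% of Abi3+/+ microglia, and Apoe- Cst7- cells were 22.2% and 37.4% against 56.01% and 56.04%. With the same mix of states in every mouse the Anxa5 shares were 39.4% and 40.1% against 32.5% and 34.6%, so the difference went from 13.1 to 6.21 points. The log2 fold change over all microglia was 0.41 ± 0.16 (adjusted p = 0.673), against 0.21 with library size only and 0.06 with no cell filter. In T cells the Anxa5 shares overlapped between genotypes and the log2 fold change was -0.73 ± 0.37 (adjusted p = 0.969), or -0.42 without Abi3-/- mouse 1 and -1.14 without Abi3-/- mouse 2, and in macrophages it was 0.17 ± 0.34 (adjusted p = 0.988).

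In edgeR the related gene lists also had 0 genes called between genotypes in all microglia and in the end states, although DESeq2 called both members in Apoe- Cst7- cells. In all microglia, the median log2 fold change was 0.05 for the 8 phosphatidylserine and apoptotic cell recognition genes, 0.26 for the 6 S100 and galectin genes and -0.20 for the 8 surface proteolysis and clotting genes, beside 0.01 over all genes tested. The surface proteolysis and clotting genes had a median of -1.74 in Apoe- Cst7- cells, beside -0.05 over all genes. Detection there ran widely, from Thbd in 0.058% of cells to S100a10 in 10.4% on average, so this median can rest on few reads. In Apoe+ Cst7+ cells the median of the list was 0.38, where 6 of the 8 were tested and the median of all genes was 0.05. Resting microglia genes had a median of -0.14 in all microglia, -0.07 in Apoe- Cst7- and 0.58 in Apoe+ Cst7+ cells. For immediate early genes these medians were -0.51, -0.51 and -0.14, in the same order. DAM genes had a median of 0.42 in all microglia, 0.40 in Apoe- Cst7- and -0.32 in Apoe+ Cst7+ cells. Anxa5 is not on that list, which includes Apoe and Cst7 that define the states. The Anxa5 log2 fold changes had the same order of signs in these 3 groups, but this likeness was not tested.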

How the data were processed

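Alignment and counting by the authors used BD's pipeline for targeted Rhapsody libraries with default settings (its version is not given in the sources used here, and the labels name mm10). They deposited 1 table of counts per mouse, which holds whole reads for each gene in each cell, corrected for errors by the pipeline's distribution-based step (DBEC). These counts are reads and not molecules, and intervals cover counting error only. The total per mouse was 87117727 to 150756771 reads.

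Anxa5, S100a10, the classes, the gene lists and the alternatives were chosen with earlier results of these data known. The study's limit of 40, stated as unique reads, was taken as 40 genes with a read. Beyond the study's upper limit on reads per cell no doublet caller was run, and 1 cell that passed 2 marker gates was left out. A share of cells is the percent with at least 1 read, with exact (Clopper-Pearson) 95% intervals and a limit of 3 counts for a count of 0. In thinned cells 559 were too shallow for 10000 reads. Levels are the natural log of 1 plus the reads per 10000 reads of the cell. For odds ratios 0.5 was added to each count.

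Reads summed per mouse were tested with edgeR 4.0.16 (quasi-likelihood, default filter, TMM, Benjamini-Hochberg, threshold 0.05) in R 4.3.3 in classes with at least 10 cells in every mouse. Standard errors come from the fold change and the F value. Alternatives were DESeq2 1.42.0, limma 3.58.1, other limits, gates and filters, and leaving out each mouse. The mice are separate animals. On simulated data for all microglia (339 genes, 200 changed 4-fold), the test called 100% of changed genes and 4 others at a dispersion of 0.01, and 0% at the observed 0.59. Every simulated gene had the same dispersion, and 0.59 is the common value fitted over all genes. The simulation therefore does not give the power for the members. Their standard errors in all microglia were 0.16 for Anxa5 and 0.27 for S100a10. Named genes are the members, the 5 genes most like each over classes among those in at least 5% of cells of a class (1 is not reported here), and up to 4 genes per list. The likeness within a state, the comparison of all states and the Itgax, Spp1, Cx3cr1, MHC, cycling and marker-free splits were added after values were seen.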

Additional observations from a re-analysis of the deposited data

Results flagged for a closer look

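The genotype values of Anxa5 stood out because their signs were opposite in Apoe+ Cst7+ and Apoe- Cst7- microglia. The log2 interaction was -1.52, with an unadjusted p of 0.000878 and an adjusted p of 0.110 (edgeR), so it did not pass. Both Abi3-/- mice were above both Abi3+/+ mice in Apoe- Cst7- cells, as for 25.1% of genes. They were below them in Apoe+ Cst7+ cells, as for 8.8% of genes, where Abi3-/- mouse 2 was close, at 65.1% against 65.99%. The Anxa5 share of Apoe- Cst7- cells in Abi3+/+ mouse 2 could not be told from background.

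Cells outside the filter also held both genes. In the 5674 cells with fewer than 40 genes and a median of 2399.5 reads, Anxa5 was in 35.3% of cells on average over the mice (29.8% and 32.6% in Abi3-/-, 38.8% and 40% in Abi3+/+). S100a10 was in 9.76% of them (6.44% and 8.59% in Abi3-/-, 12.2% and 11.8% in Abi3+/+). In these cells both members were lower in both Abi3-/- mice, as were 21.1% of the 175 genes compared there, which is the other direction from the microglia as a whole. In the 1678 cells with more reads than the upper limit, Anxa5 was in 89.0% of cells (89.7% and 85.7% in Abi3-/-, 91.04% and 89.6% in Abi3+/+), which overlap. S100a10 was in 8.90% of them (14.95% and 10.9% in Abi3-/-, 4.48% and 5.22% in Abi3+/+), and 15.6% of the 262 genes compared there were higher in both Abi3-/- mice. The genotype differences in the cells outside the filter were not tested.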

How the results depend on the processing

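The tests between genotypes rest on 2 mice each and on 15 to 95 T cells or macrophages per mouse. The simulation covers all microglia only, with the same dispersion for every gene, and the power in other classes was not simulated. Across the planned and added alternatives, 83 of the differences between classes in the share of cells stayed within 1 SD and 5 moved, and the same held for all 20 co-detection values apart from those that left out a mouse. S100a10 in macrophages minus Apoe- Cst7- microglia moved to 72.5 points with no cell filter, 55.1 with a gate of 2 markers, 73.2 with a gate of 4 and 80.99 in classes without a Trem2 read. With Apoe and Cst7 positive from 100 reads, S100a10 in Apoe+ Cst7+ minus Apoe- Cst7- microglia was -4.88 points, and the genotype log2 fold change of Anxa5 in Apoe- Cst7+ cells turned to -0.47, a setting chosen after seeing the data. That fold change was -0.0705 with no cell filter. With the same mix of states, also added after seeing the data, the Anxa5 difference in all microglia was 6.21 points.

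In macrophages the genotype log2 fold change changed sign, for Anxa5 to -0.0281 with limma and -0.0733 with library size only, and for S100a10 to -0.00623 with library size only. Leaving out each mouse in turn gave -0.12 to 0.37 for Anxa5 and -0.15 to 0.79 for S100a10 there. DESeq2 passed the threshold in Apoe- Cst7- cells for Anxa5 (log2 fold change 0.84) and S100a10 (1.00), and for the Anxa5 interaction (-1.57). It called 11 genes in Apoe- Cst7-, 1 in Apoe+ Cst7-, 11 in Apoe- Cst7+, 6 in macrophages, 4 in T cells and 10 in all microglia, where edgeR called 0. Without 1 mouse, edgeR called 0 to 2 genes in Apoe+ Cst7-, in Apoe+ Cst7+ and in all microglia, and 0 to 1 in T cells, and the Anxa5 interaction ranged from -1.88 to -1.07. The cause of these changes was not tested.

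The replicate numbers are shared between genotypes, but nothing says that they pair the mice, and there are only 2 pairs. The correlation of deviations of same-numbered mice was 0.08 in all microglia, 0.36 in Apoe- Cst7- and 0.20 in Apoe+ Cst7+ cells. With a replicate block, the log2 fold change of S100a10 in all microglia was 1.05 (adjusted p = 0.291) and of Anxa5 0.40 (adjusted p = 0.467), edgeR called 0 genes in every class, and no call changed.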
